A study of Mus musculus with 27 samples.

Results

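The 57 genes described here are 21 genes of S phase, when DNA is copied, and 36 genes of G2 and mitosis (G2/M), when the copies are checked, separated and parted into daughter cells. They were taken from a list of well known cell cycle genes, sorted by the step each product serves, and all 57 were found by symbol among the 53379 genes of the count table. All 57 passed the filter on low counts that left 18758 genes for testing. The rule that names them uses no measured value, but the list was chosen with earlier results of these data known. The filter used all 7 groups. A gene such as Bub1, with 0 counts in all healthy libraries, passed only through groups where it was high. Its call as higher than in health is thus not independent of the filter.

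RNA was sequenced from hepatic stellate cells (HSCs), the retinoid-storing pericytes of the liver that turn into matrix-producing myofibroblasts upon injury, in 27 libraries from male Balb/c mice. Injured mice received the hepatotoxin carbon tetrachloride (CCl4) intraperitoneally in mineral oil at 0.5 µL per g body weight. Acute groups had 1 injection at an age of 10 to 12 weeks and were sampled at 24 h with 3 libraries, and at 72 h and 7 d with 4 each, and chronic groups had injections on a semi-weekly basis over 4 weeks, 8 in all, from an age of 8 to 10 weeks and were sampled 24 h, 72 h or 14 d after the last one (n = 4 each). Healthy mice (n = 4) were not injected, not with oil either, and were 10 to 12 weeks old. The chronic mice were thus as old as or older than the healthy ones at sampling, and age cannot be told apart from the injections in those comparisons. HSCs were sorted by their ultraviolet fluorescence without culture, so a cell that had lost its retinoid droplets could be missed, and cells of another type carrying such fluorescence could be included.

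Library totals ran from 6.31 to 13.1 M (mega) counts, and the 8 libraries under 9 M were all from chronic groups. All chronic 14 d libraries were among them, at 6.31 to 7.44 M against 10.8 to 12.6 M in health. Depth cannot be told apart from the group in that comparison. Levels are in CPM (counts per M counts of the library, with library sizes normalised by edgeR's TMM method). The 13 stellate cell markers, Lrat among them and none at 0 in a whole group, summed to 26970 to 46820 CPM in healthy, 20320 to 33170 in acute 24 h, 15670 to 19570 in acute 72 h and 14990 to 17950 in chronic 24 h libraries, so that the last 2 groups lay below health without overlap. Acute 7 d libraries, at 18360 to 21310 CPM, and chronic 72 h libraries, at 21480 to 24110 CPM, also lay below health without overlap. Chronic 14 d libraries, at 23020 to 30420 CPM, overlapped it. The markers include Gfap and Ngfr, which the authors name as markers of quiescence. A lower sum thus does not by itself show fewer stellate cells. The 8 pan-macrophage markers, none of them at 0 in a whole group, summed to 118.1 to 446.2 CPM in healthy, 138.8 to 221.9 in acute 24 h, 300.4 to 566.3 in acute 72 h and 4163 to 10890 in acute 7 d libraries, and to 656.4 to 4175 CPM in chronic 24 h libraries. The 7 mesothelial cell and portal fibroblast markers summed to 9.156 to 22.33 CPM in healthy, 49.87 to 106.3 in acute 72 h and 200.9 to 383.5 in chronic 24 h libraries, and the 5 cholangiocyte markers to 55.84 to 102.9, 130.7 to 182.8 and 559.1 to 1296 CPM in the same groups. The part of these cells in the changes described was not tested. The 9 hepatocyte markers summed to 469 to 2746 CPM in healthy, 825.4 to 2005 in acute 72 h, 1798 to 3176 in chronic 72 h and 1464 to 6338 in chronic 14 d libraries. The 8 T and NK cell markers stayed at or under 37.41 CPM in all libraries. The 5 B cell markers summed to 6.255 to 22.75 CPM in healthy, 8.415 to 25.12 in acute 72 h, 63.92 to 170.3 in acute 7 d and 121.1 to 285.6 in chronic 14 d libraries. The part of hepatocytes and B cells was not tested either. For 18 of the 57 genes an exon is shared with another annotated gene, and since the strand setting of the counting is not given in the sources used here, their counts may hold reads of that gene. These are Mcm7, Gins2, Pole, Tk1, E2f8, Ccne2, Foxm1, Ccna2, Plk1, Cdc20, Ube2c, Cdca8, Kif20a, Kif4, Nusap1, Prc1, Stmn1 and Top2a. Gene positions are on GRCm38.

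A cell that leaves quiescence passes a restriction point at which cyclin D and cyclin E kinases inactivate the retinoblastoma family, and E2F factors then switch on the genes for copying DNA. Later in the cycle the MuvB complex, joined by B-Myb (Mybl2) and FoxM1, switches on the mitotic genes, and in resting cells the related DREAM complex holds both sets off. The sites read by these complexes are the E2F site, the cell cycle genes homology region (CHR) and, beside the latter, CCAAT boxes bound by NF-Y. Adult HSCs rest in the healthy liver and are known to divide after injury.

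RefSeq promoter windows of GRCm38.p6, 250 bases before to 50 bases after the start of transcription, were present for 47 of the 57 genes. The motifs were searched on both strands, as TTTGAA or TTCGAA for the CHR, as CCAAT for the CCAAT box, and as TTTGGCGC, TTTCCCGC, TTTGCCGC or TTTCGCGC for the E2F site. A match is a run of letters and not a bound site, and E2F letters on opposite strands can overlap. Of the 30 G2/M genes with a window, 24 (80.0%) held a CHR, against 21.7% of the 27025 genes with a window, and 21 (70.0%) held a CHR and a CCAAT box, against 9.65%. Of the 17 S phase genes with a window, 3 (17.6%) held a CHR and 7 (41.2%) an E2F match, whereas E2F matches were in 3.33% of G2/M genes and 2.6% of all genes. CCAAT boxes were in 64.7% of S phase, 76.7% of G2/M and 41.1% of all genes. The following 4 stretches are the 200 bases before the start, with matches in capitals (TTCAAA and ATTGG are the CHR and the CCAAT box on the other strand). They are examples and do not stand for all genes of their sets. Over the 26 G2/M windows with a CHR, the nearest one began at a median position of 11.5, after the start and outside such a stretch. Mcm6 is among the 7 S phase genes with an E2F match. Cdc20 activates the anaphase-promoting complex (chr4:118437344-118437543, minus strand), Kif11 is the motor that pushes spindle poles apart (chr19:37376182-37376381, plus strand), Cdk1 is the mitotic kinase (chr10:69352913-69353112, minus strand) and Mcm6 is a subunit of the replicative helicase (chr1:128359706-128359905, minus strand).
Cdc20: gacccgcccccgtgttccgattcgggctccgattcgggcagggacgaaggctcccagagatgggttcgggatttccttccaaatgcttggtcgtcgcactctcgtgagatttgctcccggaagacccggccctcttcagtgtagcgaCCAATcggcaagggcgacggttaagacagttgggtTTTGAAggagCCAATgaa
Kif11: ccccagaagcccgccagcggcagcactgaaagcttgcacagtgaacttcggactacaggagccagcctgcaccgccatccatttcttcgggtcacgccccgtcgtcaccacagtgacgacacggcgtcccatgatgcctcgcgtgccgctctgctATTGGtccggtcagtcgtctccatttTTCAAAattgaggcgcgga
Cdk1: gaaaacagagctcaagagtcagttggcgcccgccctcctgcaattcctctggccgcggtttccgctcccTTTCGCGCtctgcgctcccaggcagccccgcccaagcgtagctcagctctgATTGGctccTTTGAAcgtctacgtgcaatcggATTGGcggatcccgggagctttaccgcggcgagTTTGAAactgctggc
Mcm6: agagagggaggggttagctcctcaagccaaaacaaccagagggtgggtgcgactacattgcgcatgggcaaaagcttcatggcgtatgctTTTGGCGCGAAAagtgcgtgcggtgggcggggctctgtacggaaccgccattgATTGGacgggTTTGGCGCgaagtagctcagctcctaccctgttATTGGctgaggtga
In Cdc20 a CHR began at position -18 from the start, between CCAAT boxes at -53 and -8, and in Kif11 a CHR lay at position -19 behind a CCAAT box at -45. Cdk1 held both kinds of mitotic match and an E2F match at -131, the only E2F match among the G2/M genes. Mcm6 held E2F and CCAAT matches and no CHR. In its long capital run, 2 E2F matches of opposite strands overlap.

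**Figure D1:**
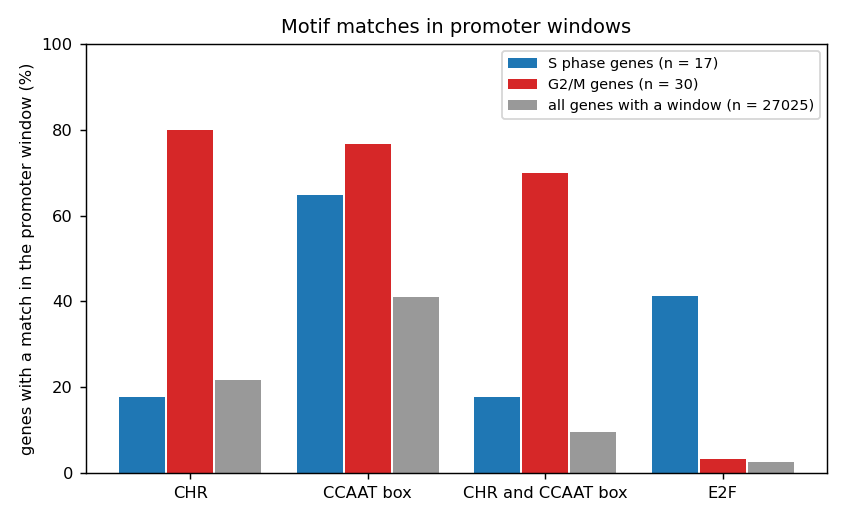
Share of genes (y axis, percent) with a match to each motif (x axis) in the promoter window, for S phase genes (blue, n = 17), G2/M genes (red, n = 30) and all genes with a window (grey, n = 27025). The CHR bar of the G2/M genes stands at 80.0% and that of all genes at 21.7%, and the E2F bar of the S phase genes stands at 41.2% against 2.6%.

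Over the course of injury the summed levels of the genes were highest 72 h after a single injection. The S phase genes summed to 241.9, 247.4, 270.6 and 275.7 CPM in healthy HSCs and to 791.8, 717.1, 924.9 and 1004 CPM in acute 72 h HSCs. The G2/M genes summed to 143.1, 193.3, 220 and 148.2 CPM in healthy and to 1274, 1175, 2180 and 2326 CPM in acute 72 h HSCs. In both sums every acute 72 h library lay above every library of every other group. At 7 d after the injection the G2/M sum was 709.5, 570.6, 461.9 and 205.8 CPM, and 3 of these 4 libraries lay above the highest healthy one. After chronic injury neither sum came near the acute 72 h level. The S phase genes summed to 257.4 to 351.7 CPM at 24 h, 221.9 to 246.4 at 72 h and 209.2 to 238.7 at 14 d, and the G2/M genes to 63.92 to 88.14, 154.1 to 225 and 94.29 to 108 CPM. In bulk RNA, a change in the share of dividing cells and a change in the RNA per dividing cell cannot be told apart.

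**Figure D2:**
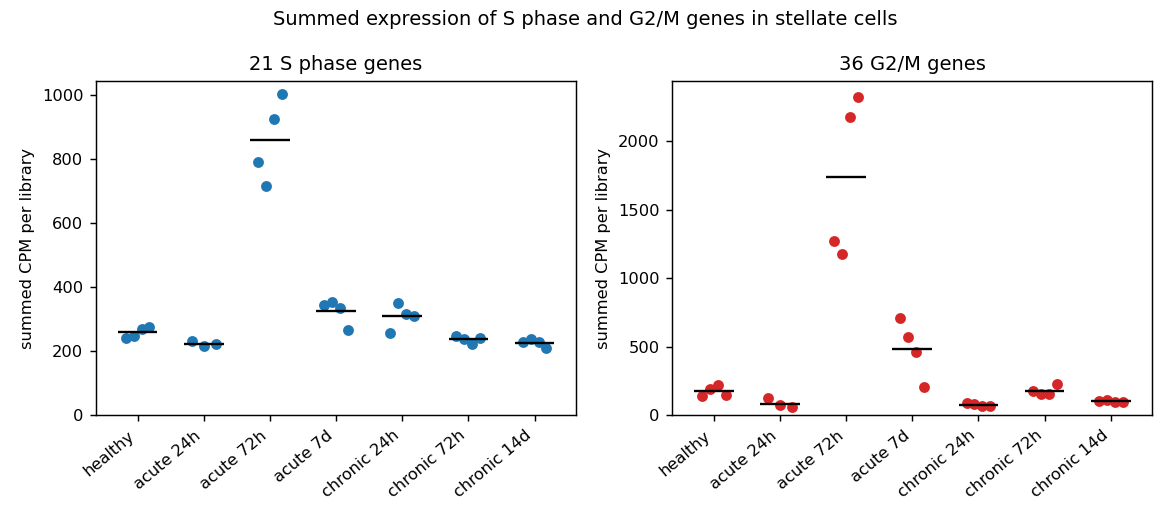
Summed CPM per library (y axes, linear from 0) of the 21 S phase genes (left, blue) and the 36 G2/M genes (right, red) by group (x axes), with 1 point per library and a bar at the group mean. The 4 acute 72 h points stand above all others in both panels, between 717.1 and 1004 CPM on the left and 1175 and 2326 CPM on the right.

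The 2 sets did not move in proportion. The ratio of the S phase sum to the G2/M sum was 1.515 ± 0.309 (SD, n = 4) in healthy HSCs, 2.868 ± 0.938 (n = 3) at acute 24 h, 0.5218 ± 0.109 (n = 4) at acute 72 h and 0.7813 ± 0.359 (n = 4) at acute 7 d. It was 4.185 ± 0.874 at chronic 24 h, 1.351 ± 0.204 at chronic 72 h and 2.238 ± 0.123 at chronic 14 d (n = 4 each). The chronic 24 h libraries, at 2.92 to 4.847, all lay above the healthy range of 1.23 to 1.861, and the acute 72 h libraries, at 0.4243 to 0.6214, all lay below it. No test is given for these ratios, which are scores over the listed genes. The sums add CPM without weights, so abundant genes, such as Mcm2, Mcm4 and Pcna in the S phase set, weigh most in them.

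The first comparison asked how acute injury at 72 h differed from health. A gene was called when its Benjamini-Hochberg adjusted p in edgeR's quasi-likelihood test was below 0.05 and its change above 2-fold, and fold changes are log2 values with their standard errors. Of the 57 genes, 54 were called higher and 0 lower, where 8.23% of all genes tested were called higher and 4.33% lower, and 55 of the 57 genes had all acute 72 h libraries above all healthy ones, as did 14.2% of all genes. At an unadjusted p below 0.05, 55 of the 57 differed, and DESeq2 also called 54 higher and 0 lower. All 36 G2/M genes and 18 of 21 S phase genes rose. The median log2 fold change was 3.40 over the 57 genes, 2.25 over S phase and 3.84 over G2/M genes, against 0 over all genes, and it was the same when a gene with 0 counts in a whole group was set to the bound that a floor of 3 counts per library gives. The 3 not called were Pcna, the sliding clamp of the replication fork, Mcm4, a helicase subunit, and Mcm10, a helicase activator. Leaving out single libraries gave 53 to 55 genes called higher.

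Among the licensing and helicase genes, which load and start the replicative helicase, 8 of 10 rose. Mcm2 was at 35.9, 51.7, 46.9 and 41.1 CPM in healthy and at 107, 90.4, 87.6 and 101 CPM in acute 72 h libraries (log2 fold change 1.14 ± 0.17, adjusted p = 3.3e-05). Mcm5 was at 3.72, 4.58, 5.56 and 1.47 CPM and rose to 31.6, 39.7, 23.2 and 22.2 CPM (log2 fold change 2.92 ± 0.35, adjusted p = 3.2e-06). The groups did not overlap in either gene, and the change was larger in Mcm5. Mcm6 rose by 3.19 ± 0.30, while Mcm2, Mcm3 (1.19 ± 0.19) and Mcm7 (1.55 ± 0.16) had the smallest changes of all genes called. Mcm10 was at 2.18, 1.46, 0.927 and 15.7 CPM in healthy libraries, where replicate 4 stood apart, and at 8.33, 7.62, 7.97 and 12.8 CPM in acute 72 h libraries.

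Genes of the fork and of nucleotide supply rose in 6 of 7 cases, Pcna being the exception. Pcna was at 38.3, 22.9, 27.5 and 41.8 CPM in healthy and 31.1, 43.2, 54.9 and 44.5 CPM in acute 72 h libraries, which overlapped (log2 fold change 0.41 ± 0.25, adjusted p = 0.25). Rrm2, the S phase subunit of the enzyme that makes deoxynucleotides, was at 2.81, 2.73, 3.54 and 2.34 CPM in healthy and at 37.8, 4.24, 75.4 and 81.3 CPM in acute 72 h libraries (log2 fold change 4.12 ± 0.58, adjusted p = 2.0e-05). Replicate 2 stayed near the healthy range in Rrm2 although its other S phase genes were high. Tyms, which makes thymidylate, was at 1.72, 3.22, 3.79 and 3.38 CPM in healthy and 14.4, 14.6, 14.5 and 14.2 CPM in acute 72 h libraries (log2 fold change 2.25 ± 0.35, adjusted p = 7.2e-05). Uhrf1, which carries DNA methylation over to the new strand, went from 1.72, 3.998, 3.03 and 2.86 CPM to 18.8, 36.1, 43.7 and 57.8 CPM (log2 fold change 3.75 ± 0.47, adjusted p = 5.4e-06). Tk1, the salvage thymidine kinase, rose by 3.50 ± 0.40 on the log2 scale, with an exon of Afmid on the other strand lying over it.

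The 4 genes of cyclin E and E2F factors all rose. E2f1 (ENSMUSG00000027490, chr2:154559407-154569892, minus strand) was at 1.09, 0.975, 2.19 and 0.867 CPM in healthy and at 24.3, 20.001, 19.6 and 23.9 CPM in acute 72 h HSCs (log2 fold change 4.08 ± 0.39, adjusted p = 2.1e-07). Ccne1 (ENSMUSG00000002068, chr7:38097984-38107534, minus strand), the cyclin that starts S phase, went from 1.18, 1.17, 1.601 and 0.433 CPM to 8.68, 10.9, 10.6 and 14.2 CPM (log2 fold change 3.32 ± 0.32, adjusted p = 2.1e-07). E2f8, a late repressor of E2F targets, was at 0.272, 0, 0.169 and 0 CPM in healthy and 8.41, 9.35, 12.6 and 16.6 CPM in acute 72 h libraries (log2 fold change 6.58 ± 1.09, adjusted p = 0.00013). No healthy library overlapped the acute 72 h range in these 3 genes. The healthy E2f8 values were at or under a floor of 3 counts per library, so the size of its fold change is uncertain.

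Both transcription factors of the G2/M program rose. Foxm1 was at 7.43, 10.3, 13.5 and 3.73 CPM in healthy and 69.3, 51.3, 88.4 and 14.6 CPM in acute 72 h libraries (log2 fold change 2.67 ± 0.43, adjusted p = 9.9e-05), and its replicate 4 lay just above the highest healthy library although it had the highest G2/M sum. Foxm1 shares exon sequence with 2 annotated genes on its strand. Mybl2 went from 0.635, 2.05, 1.26 and 0.173 CPM to 6.998, 5.11, 8.05 and 8.44 CPM (log2 fold change 2.79 ± 0.54, adjusted p = 0.00067).

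All 9 mitotic cyclins, kinases and checkpoint genes rose. Cdk1 was at 5.71, 3.22, 4.21 and 6.67 CPM in healthy and 38.7, 44.2, 42.02 and 52.8 CPM in acute 72 h libraries (log2 fold change 3.16 ± 0.32, adjusted p = 3.6e-07), the smallest change of the 9. Ccnb1, the cyclin B that activates it, was at 1.45, 3.9004, 2.19 and 1.73 CPM and 23.8, 20.8, 63.9 and 73.4 CPM (log2 fold change 4.29 ± 0.70, adjusted p = 0.00011). Plk1, a kinase that drives entry into mitosis, was at 0, 2.24, 2.86 and 0 CPM and 26.9, 24.6, 57.1 and 50.03 CPM (log2 fold change 4.95 ± 0.93, adjusted p = 0.00047). In Ccnb1 and Plk1, replicates 3 and 4 were about alike and both above replicates 1 and 2, as in the G2/M sum. Ccnb2 was at 0.363, 0, 2.11 and 0.953 CPM in healthy and 37.03, 47.3, 61.4 and 63.4 CPM in acute 72 h libraries (log2 fold change 5.89 ± 0.85, adjusted p = 5.4e-05). Bub1, a spindle checkpoint kinase, had 0 counts in all healthy libraries and 4.43, 2.42, 6.75 and 10.3 CPM at acute 72 h, at least 22.2-fold higher against a floor of 3 counts per library (adjusted p = 0.0014).

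Cdc20 and Ube2c, which work with the anaphase-promoting complex, and Cdca3, a substrate of that complex known for its part in the entry into mitosis, all rose. Cdc20 was at 3.17, 5.17, 6.32 and 2.17 CPM in healthy and 26.4, 29.7, 73.2 and 62.2 CPM in acute 72 h HSCs (log2 fold change 3.51 ± 0.57, adjusted p = 0.00011), with an exon of Elovl1 on the other strand lying over it. All 8 centromere and kinetochore genes rose. Cenpa, the histone variant that marks centromeres, was at 8.97, 10.7, 13.2 and 17.7 CPM and 44.7, 45.5, 77.8 and 67.8 CPM (log2 fold change 2.22 ± 0.29, adjusted p = 9.8e-06), while Birc5 (survivin), of the chromosomal passenger complex, was at 1.99, 1.95, 2.95 and 1.99 CPM and 3.897, 3.29, 11.7 and 63.4 CPM (log2 fold change 3.20 ± 0.77, adjusted p = 0.0042). The rise of Birc5 rested on replicate 4, and the call was lost without that library.

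All 10 spindle motors and microtubule proteins rose. Kif11 was at 1.81, 1.76, 1.26 and 0.7799 CPM in healthy and 10.98, 12.99, 42.3 and 32.8 CPM in acute 72 h libraries (log2 fold change 4.13 ± 0.64, adjusted p = 6.5e-05). Kif4, a chromosome-bound motor, was at 0.363, 0.878, 1.43 and 0 CPM and 9.03, 8.05, 16.6 and 16.2 CPM (log2 fold change 4.20 ± 1.11, adjusted p = 0.0085), and Stmn1 (stathmin), which destabilises microtubules, was at 8.25, 15.6, 17.8 and 8.84 CPM and 125, 95.8, 102 and 187 CPM (log2 fold change 3.33 ± 0.46, adjusted p = 1.5e-05). None of the 3 overlapped between the groups. Kif2c, a microtubule depolymerase of the kinetochore, rose by 5.64 ± 1.10. All 4 genes of chromosome structure and cytokinesis rose. Top2a (ENSMUSG00000020914, chr11:98992943-99024189, minus strand), which untangles sister chromatids, was at 1.81, 2.24, 3.202 and 1.73 CPM in healthy and 26.1, 32.6, 47.5 and 59.4 CPM in acute 72 h libraries (log2 fold change 4.19 ± 0.55, adjusted p = 7.9e-06). Mki67 (ENSMUSG00000031004, chr7:135689784-135716361, minus strand), the source of the Ki-67 antigen that coats mitotic chromosomes, was at 9.6999, 26.2, 23.3 and 4.59 CPM and 159, 129, 178 and 206 CPM (log2 fold change 3.40 ± 0.62, adjusted p = 0.00036). Per kb of exon, the mean level at acute 72 h was highest in Stmn1, at 66.2 CPM per kb, followed by Ccnb2 at 34.1, Ccna2 at 28.9 and Cdc20 at 25.6, and was lowest in Pole at 0.772.

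**Figure D3:**
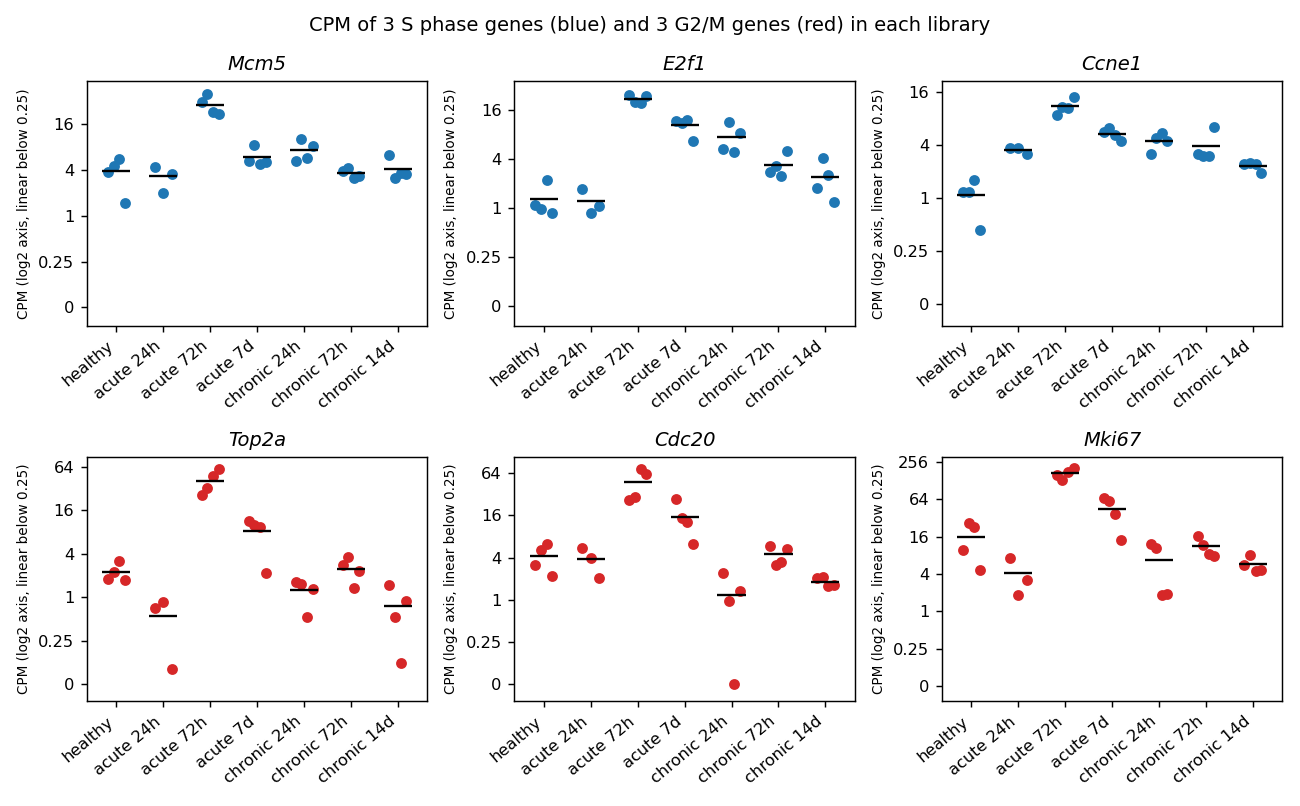
CPM in each library (y axes, log2 scale, linear below 0.25) of Mcm5, E2f1 and Ccne1 (S phase, blue) and Top2a, Cdc20 and Mki67 (G2/M, red) by group (x axes), with 1 point per library and a bar at the group mean. The highest point is an acute 72 h library in all 6 genes, with 1 acute 7 d library of Cdc20 above the lowest acute 72 h one, and E2f1 and Ccne1 stay above most healthy points in all 3 chronic groups.

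At 24 h after the single injection, 3 genes were higher and 15 lower than in health, where 9.41% of all genes were called higher and 12.5% lower. The median log2 fold change was -0.78 over the 57 genes, -0.23 over S phase and -1.24 over G2/M genes, against -0.12 over all genes. The 3 higher genes, Ccne1, Uhrf1 and Cdt1, were S phase genes, of which 3 others were lower. Ccne1 was at 3.74, 3.73 and 3.16 CPM in acute 24 h libraries (log2 fold change 1.68 ± 0.33, adjusted p = 0.00032), Uhrf1 at 7.3004, 7.29 and 9.57 CPM (log2 fold change 1.47 ± 0.47, adjusted p = 0.018) and Cdt1, which loads the helicase, at 8.01, 10.4 and 7.99 CPM against 3.81, 3.71, 4.97 and 5.03 CPM in health (log2 fold change 1.01 ± 0.25, adjusted p = 0.0035). All acute 24 h libraries lay above all healthy ones in these 3 genes. Such separation held for 4 of the 57 genes, against 19.7% of all genes tested. Cdt1 lost its call without healthy replicate 1 or 2 or acute 24 h replicate 2, and Uhrf1 without healthy replicate 1 or acute 24 h replicate 3.

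The lower genes were 12 G2/M and 3 S phase genes. Top2a was at 0.712, 0.868 and 0.0878 CPM in acute 24 h libraries (log2 fold change -1.99 ± 0.64, adjusted p = 0.019), Stmn1 at 5.25, 2.43 and 0.7901 CPM (log2 fold change -2.16 ± 0.51, adjusted p = 0.0021) and Cenpa at 3.03, 3.99 and 2.28 CPM (log2 fold change -2.02 ± 0.34, adjusted p = 6.7e-05), all below every healthy library. Ect2, which places the cleavage furrow, fell by 2.23 on the log2 scale, and Mki67 was at 7.3004, 1.82 and 3.25 CPM (log2 fold change -1.95 ± 0.67, adjusted p = 0.028). Ect2 lost its call without any of 5 of the 7 libraries and Mki67 without any of 4. Mki67 overlapped between the groups at replicate 1. In 18 of the 57 genes all acute 24 h libraries lay below all healthy ones, against 20.1% of all genes tested. Mcm10 was at 0.445, 0.347 and 0.878 CPM (log2 fold change -3.16 ± 0.93, adjusted p = 0.01), and that call was lost without healthy replicate 4 or acute 24 h replicate 2. The smallest falls called were in Prc1 (-1.28), Mcm4 (-1.14) and Anln (-1.13). Kif20a, a motor of cytokinesis, had 0 counts at acute 24 h and 0.0907, 2.93, 0.337 and 0 CPM in health, and was not called. Ccnb1 at 2.23, 0.521 and 0.263, Plk1 at 1.603, 1.22 and 0.176, Cdk1 at 10.9, 7.55 and 3.25 and E2f1 at 1.69, 0.868 and 1.05 CPM overlapped the healthy range. The number of lower genes was 5 without acute 24 h replicate 3, 6 without replicate 2 and 8 without healthy replicate 3, and the number of higher genes was 1 without healthy replicate 1.

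From 24 h to 72 h of acute injury, 55 of 57 genes rose and 0 fell, against 11.2% of all genes called higher and 3.76% lower. The median change was 4.34 over the 57 genes (2.33 over S phase and 5.23 over G2/M genes, the latter 5.16 with bounds) and 0.07 over all genes. Gins2, part of the helicase, and Pcna were not called. Hmmr, a spindle and hyaluronan-binding protein, rose by 7.20 ± 1.01 from 0.712, 0 and 0 to 28.8, 24.3, 43.7 and 48.2 CPM. Top2a rose by 6.19 ± 0.71 (adjusted p = 1.5e-06) and Bub1b by 6.93 ± 1.22, whereas Cdt1 (1.20 ± 0.26), Mcm2 (1.401 ± 0.18) and Tyms (1.48 ± 0.38) rose least among those called. Bub1 and Kif20a, both at 0 counts at 24 h, were at least 22.7-fold and at least 61.0-fold higher at 72 h.

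At 7 d, 31 genes were still higher than in health and 0 lower, against 9.23% and 5.64% of all genes. These were 9 S phase and 22 G2/M genes, with medians of 0.93 and 1.86 and a median of 0.01 over all genes. E2f1 was at 11.7, 11.2, 11.99 and 6.67 CPM (log2 fold change 3.01 ± 0.38, adjusted p = 4.6e-06) and Ccne1 at 5.66, 6.32, 5.15 and 4.44 CPM (log2 fold change 2.29 ± 0.31, adjusted p = 1.2e-05). Rrm2 was at 18.5, 19.8, 15.5 and 8.35 CPM (log2 fold change 2.44 ± 0.55, adjusted p = 0.0022). All 7 d libraries lay above the healthy ones in these 3 genes, as they did in 19 of the 57 genes and 14.4% of all genes tested. Top2a was at 11.2, 10.1, 9.499 and 2.15 CPM (log2 fold change 1.87 ± 0.51, adjusted p = 0.0098), Ccnb1 at 26.4, 18.9, 8.77 and 2.76 CPM (log2 fold change 2.61 ± 0.66, adjusted p = 0.006) and Plk1 at 18.3, 15.99, 10.7 and 4.29 CPM (log2 fold change 3.26 ± 0.87, adjusted p = 0.0088). Replicate 4 was the lowest of the 4 in each of these 3 genes, and its Top2a and Ccnb1 levels lay inside the healthy range. The highest changes called were in E2f8 (4.65 ± 1.06), Ccnb2 (4.18 ± 0.81) and Bub1, which was at least 5.35-fold higher against its healthy floor. Healthy E2f8 values were at or under that floor, so the size of its change is uncertain. Rrm1 (1.005 ± 0.20), Cdt1 (1.01 ± 0.24) and Mcm6 (1.16 ± 0.28) changed least among those called. Rrm1 and Cdt1 each lost the call without any of 4 of the 8 libraries. Pan-macrophage markers were highest in this group, at 4163 to 10890 CPM, and the 5 cholangiocyte markers were at 757.8 to 4797 CPM against 55.84 to 102.9 in health. Their part in the 7 d levels was not tested.

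Genes not called at 7 d were 12 of S phase and 14 of G2/M. Mcm2 was at 27.6, 32.1, 33.2 and 31.3 CPM (log2 fold change -0.50 ± 0.17, adjusted p = 0.031), below every healthy library but by less than 2-fold, and Cdk1 at 4.85, 8.78, 3.62 and 7.51 CPM (log2 fold change 0.32 ± 0.30, adjusted p = 0.49) overlapped health. Mki67 was at 67.5, 59.5, 37.7 and 13.9 CPM (log2 fold change 1.49 ± 0.58, adjusted p = 0.066), Cenpa at 31.1, 18.6, 18.5 and 12.2 CPM (log2 fold change 0.67 ± 0.29, adjusted p = 0.094) and Mcm5 at 5.26, 8.53, 4.83 and 5.13 CPM (log2 fold change 0.63 ± 0.34, adjusted p = 0.18), and none of them was called, although 3 of the 4 Mki67 values lay above every healthy library. The number of genes called was 22 without acute 7 d replicate 1 and 37 without replicate 4.

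From 72 h to 7 d, 40 genes fell and 0 rose, against 2.73% and 5.08% of all genes. They were 17 of 21 S phase and 23 of 36 G2/M genes, with a median of -1.80 over the 57 genes and -0.04 over all genes. Cdk1 fell by 2.84 on the log2 scale (adjusted p = 5.5e-06), Top2a by 2.33 (adjusted p = 0.0032) and Mcm5 by 2.29 (adjusted p = 0.00012). Kif20a, at 0, 0, 3.703 and 0.843 CPM at 7 d, fell by 3.81, and Mcm4 (-1.09), E2f1 (-1.07) and Ccne1 (-1.04) fell least. The fall of E2f1 lost its call without any of the 8 libraries, and that of Kif20a without 6 of them. The kinase Plk1 (-1.69 ± 0.78) and the cyclin Ccnb1 (-1.68 ± 0.62) were not called. The count was 25 without acute 72 h replicate 3, 26 without acute 72 h replicate 4 and 25 without acute 7 d replicate 4.

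After 4 weeks of injections the genes did not rise at 72 h as they did after 1 injection. At 24 h the 2 kinds of injury were alike in several respects. At acute 24 h too, the 3 higher genes were of S phase, 12 of 15 lower ones were of G2/M, and the G2/M median was -1.24. At chronic 24 h, 5 genes were higher and 13 lower than in health, against 11.2% and 8.11% of all genes, with medians of 0.26 over S phase, -1.23 over G2/M and -0.03 over all genes. All 5 higher genes belonged to S phase and all 13 lower ones to G2/M. E2f1 was at 5.25, 11.3, 4.91 and 8.4003 CPM (log2 fold change 2.52 ± 0.37, adjusted p = 1.6e-05) and Ccne1 at 3.15, 4.804, 5.44 and 4.48 CPM (log2 fold change 2.02 ± 0.31, adjusted p = 2.5e-05). Uhrf1 was at 6.45, 13.2, 9.38 and 13.1 CPM (log2 fold change 1.86 ± 0.45, adjusted p = 0.0028). Each chronic 24 h library lay above each healthy one in these 3 genes. Such separation held for 5 of the 57 genes, against 14.7% of all genes tested. Cdt1 was at 10.9, 12.6, 13.6 and 13.6 CPM (log2 fold change 1.53 ± 0.24, adjusted p = 3.3e-05), and Rrm1, the large subunit of the deoxynucleotide enzyme, at 51.6, 55.3, 77.3 and 58.7 CPM against 26.3, 32.7, 29.7 and 25.6 CPM (log2 fold change 1.09 ± 0.20, adjusted p = 0.00018). Mcm5 at 5.25, 10.2, 5.7003 and 8.32 CPM (log2 fold change 0.94 ± 0.34, adjusted p = 0.037) did not reach 2-fold, and Mcm2 at 36.7, 59.9, 49.9 and 50.6 CPM, Pcna at 23.7, 37.2, 15.8 and 24.9 CPM and Rrm2 at 4.05, 2.47, 3.51 and 2.32 CPM overlapped health.

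In the same libraries Ccnb2 had 0 counts, against 0.363, 0, 2.11 and 0.953 CPM in health, at least 2.51-fold lower (adjusted p = 0.012). Ccnb1 was at 0.5996, 0.549, 0 and 0.48002 CPM (log2 fold change -2.56 ± 0.81, adjusted p = 0.019) and Cdc20 at 2.398, 0.961, 0 and 1.36 CPM (log2 fold change -1.89 ± 0.61, adjusted p = 0.02). Every chronic 24 h library was below every healthy one in Ccnb1, and 1 overlapped the healthy range in Cdc20. In 13 of the 57 genes all chronic 24 h libraries lay below all healthy ones, against 11.6% of all genes tested. Cenpf, a kinetochore protein, was at 2.25, 0.961, 0 and 0.16001 CPM against 5.44, 15.1, 15.4 and 6.85 CPM (log2 fold change -3.86 ± 0.73, adjusted p = 0.00028), and Nuf2, which holds microtubules at the kinetochore, had counts in 1 library alone, at 0, 0.412, 0 and 0 CPM. Prc1, which bundles the central spindle, was at 2.099, 1.37, 1.403 and 2.32 CPM against 5.89, 10.4, 14.3 and 7.45 CPM (log2 fold change -2.39 ± 0.43, adjusted p = 0.00016). Cenpa at 8.09, 5.35, 3.596 and 4.8002 CPM (log2 fold change -1.22 ± 0.30, adjusted p = 0.0028), Stmn1 at 3.897, 8.099, 4.91 and 4.48 CPM (log2 fold change -1.24 ± 0.44, adjusted p = 0.036) and Anln (-1.29) had the smallest falls called. The call of Stmn1 was lost without any of 5 of the 8 libraries. Mki67 at 12.1, 10.6, 1.84 and 1.92 CPM (log2 fold change -1.31 ± 0.60, adjusted p = 0.1) and Top2a at 1.65, 1.51, 0.526 and 1.28 CPM (log2 fold change -0.89 ± 0.55, adjusted p = 0.23) were not called. Without single libraries the lower genes numbered 10 to 16 and the higher ones 5 to 6. Pan-macrophage markers were at 656.4 to 4175 CPM in this group, and their part in the S phase levels was not tested.

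At chronic 72 h, 2 genes were higher and 1 lower than in health, against 7.88% and 4.2% of all genes, and the median change over the 57 genes was 0.12 (0.10 with bounds). Ccne1 was at 3.1997, 3.0001, 3.03 and 6.42 CPM (log2 fold change 1.83 ± 0.31, adjusted p = 0.00018), all above health, and E2f1 at 2.7997, 3.29, 2.49 and 5.01 CPM (log2 fold change 1.4 ± 0.37, adjusted p = 0.0091), a call lost without chronic 72 h replicate 4. Mcm2, at 27.2, 22.4, 16.1 and 17.3 CPM, was the gene called lower (log2 fold change -1.08 ± 0.17, adjusted p = 6.4e-05), and this call was lost without healthy replicate 2 or chronic 72 h replicate 3. Of the 36 G2/M genes 0 were called by edgeR and 3 had an unadjusted p below 0.05. DESeq2 called 4 of the 57 genes higher and 1 lower. In these libraries Mki67 was at 16.4, 11.9, 8.56 and 7.68 CPM and Top2a at 2.7997, 3.57, 1.32 and 2.27 CPM, both overlapping health, and Cdk1 was at 7.599, 7.14, 7.55 and 8.304 CPM, above every healthy library by less than 2-fold. At chronic 14 d, 1 gene was higher (4.55% of all genes) and 1 lower (1.17% of all genes). Every library of this group held fewer counts than every healthy one, so few calls do not by themselves show a return to health. Ccne1 was at 2.43, 2.50001, 2.41 and 1.91 CPM (log2 fold change 1.07 ± 0.32, adjusted p = 0.035), which lost its call without any of 6 of the 8 libraries, and Prc1 was at 2.84, 2.89, 4.21 and 1.03 CPM (log2 fold change -1.78 ± 0.42, adjusted p = 0.0082), which kept its call without each of the 8 libraries. The G2/M median was -0.84, with Mki67 at 5.67, 8.16, 4.45 and 4.701 CPM and Top2a at 1.49, 0.526, 0.1203 and 0.881 CPM, neither called.

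**Figure D4:**
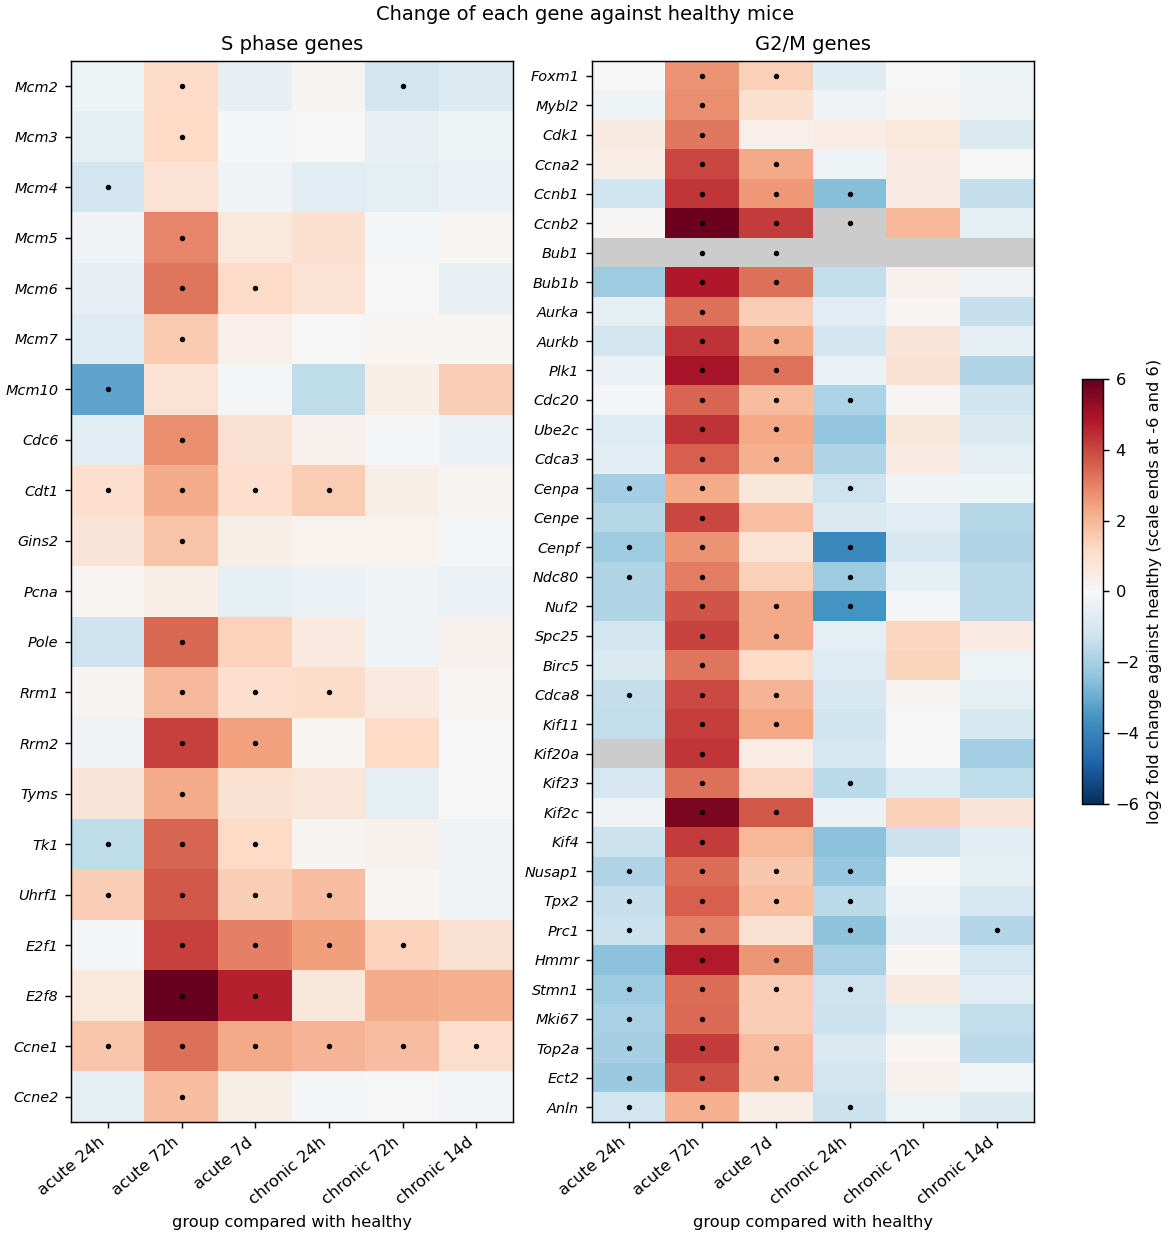
Log2 fold change of each gene (rows) in each injured group against healthy HSCs (columns), for the 21 S phase genes (left) and the 36 G2/M genes (right), with red for higher, blue for lower, grey where a group had 0 counts in every library and a dot where the gene was called. The acute 72 h column holds 54 dots, the chronic 24 h column 5 dots on the left and 13 on the right, and the Ccne1 row a dot in every column.

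From chronic 24 h to chronic 72 h, 12 genes rose and 6 fell, against 4.72% and 3.65% of all genes, and all that rose belonged to G2/M and all that fell to S phase. The medians were -0.32 over S phase, 1.399 over G2/M and 0 over all genes. Ccnb1 rose from 0.5996, 0.549, 0 and 0.48002 to 3.33, 1.57, 2.101 and 6.03 CPM (log2 fold change 3.07 ± 0.81, adjusted p = 0.011), and Ccnb2, from 0 counts, to 2.93, 0.857, 3.03 and 6.97 CPM, at least 10.1-fold. Cenpf rose by 2.89 ± 0.73 and Nuf2 to 1.1999, 0.857, 0.311 and 1.96 CPM, while Cenpa (1.02 ± 0.30), Tpx2 (1.43 ± 0.47) and Spc25 (1.79 ± 0.49) rose least among those called. Tpx2 lost its call without any of 7 of the 8 libraries, Cenpa without any of 4, Nuf2 without any of 3 and Spc25 without any of 2. Of the falling genes, Uhrf1 went from 6.45, 13.2, 9.38 and 13.1 to 4.67, 5.14, 1.401 and 1.88 CPM (log2 fold change -1.72 ± 0.45, adjusted p = 0.011). Mcm2 fell by 1.25 (adjusted p = 2.2e-05), Tyms by 1.31 (adjusted p = 0.014), Cdt1 by 1.17, E2f1 by 1.12 and Mcm5 by 1.00. E2f1 lost this call without any of 5 of the 8 libraries and Mcm5 without any of 6. The rising genes numbered 6 without chronic 72 h replicate 4 and 7 without chronic 24 h replicate 4, without which the falling ones numbered 3. With libraries of over 9 M counts only, 8 rose and 4 fell.

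From chronic 72 h to chronic 14 d, 1 gene fell (0.64% of all genes) and 0 rose (0.261%). Cdk1 went from 7.599, 7.14, 7.55 and 8.304 to 3.11, 3.29, 2.53 and 1.91 CPM (log2 fold change -1.49 ± 0.32, adjusted p = 0.015) with no overlap, and the call was lost without chronic 72 h replicate 4, chronic 14 d replicate 3 or chronic 14 d replicate 4.

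The change from 24 h to 72 h was then compared between chronic and acute injury by the interaction term of the same model. Chronic mice were as old as or older than acute ones, and age cannot be told apart from the number of injections here. For 40 of the 57 genes the change was lower in chronic injury and for 0 it was higher, against 6.46% and 2.28% of all genes. The median difference was -3.22 over the 57 genes, -2.65 over S phase and -3.34 over G2/M genes, against -0.09 over all genes. The 40 were 17 S phase and 23 G2/M genes. Mcm5 rose by 3.12 in acute and fell by 1.00 in chronic injury, a difference of -4.12 ± 0.52 (adjusted p = 1.8e-05). E2f1 (-5.30 ± 0.56, adjusted p = 3.1e-06), Top2a (-5.18 ± 0.85, adjusted p = 0.00037) and Mki67 (-4.56 ± 0.92, adjusted p = 0.0022) differed likewise. Kif20a, at 0 counts at acute 24 h, was also called and is given no fold. Cenpe (-5.55) and Pole (-5.48) had large differences, while Mcm4 (-1.98), Foxm1 (-1.98) and Ccne1 (-1.83) had the smallest among those called. Foxm1 lost its call without any of 11 of the 15 libraries. Cdc20 (-1.66 ± 0.85), Ccnb1 (-2.42 ± 1.17), Birc5 (-1.96 ± 1.14), Plk1 (-3.98 ± 1.34) and Kif4 (-4.36 ± 2.33) were not called, and Pcna differed by -0.13 ± 0.37. With libraries of over 9 M counts only, 25 genes were called.

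**Figure D5:**
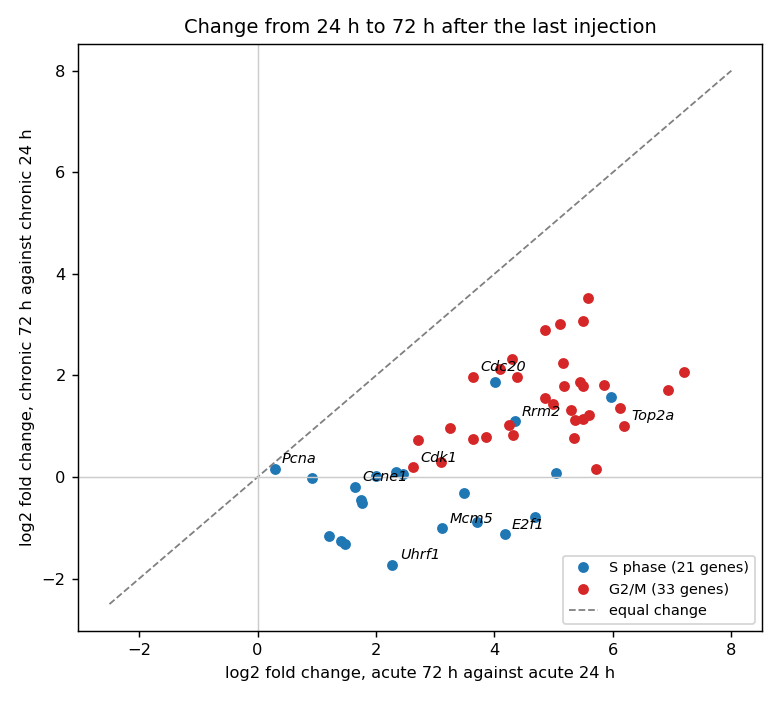
Log2 fold change from 24 h to 72 h after acute injury (x axis) and after the last injection of chronic injury (y axis) for 21 S phase (blue) and 33 G2/M genes (red), leaving out Bub1, Ccnb2 and Kif20a, which had 0 counts in all libraries of a 24 h group. All points lie below the dashed line of equal change, and S phase genes such as E2f1, Mcm5 and Uhrf1 lie below 0 on the y axis.

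Both 24 h groups were compared directly as well, with the same limit from age. Depth differed too, since chronic 24 h replicates 1 and 2 had 6.95 and 7.58 M counts, below every acute 24 h library. Chronic 24 h libraries were higher in 4 genes and lower in 1 than acute 24 h libraries, against 10.9% and 3.05% of all genes. E2f1 was at 5.25, 11.3, 4.91 and 8.4003 CPM in chronic and 1.69, 0.868 and 1.05 CPM in acute 24 h HSCs (log2 fold change 2.62 ± 0.42, adjusted p = 9.2e-05), with no overlap. Tk1 was at 9.44, 6.45, 5.61 and 3.68 against 2.76, 1.82 and 1.05 CPM (log2 fold change 1.73 ± 0.44, adjusted p = 0.0063) and Mcm6 at 7.49, 10.6, 5.44 and 10.6 against 4.27, 3.82 and 1.84 CPM (log2 fold change 1.36 ± 0.32, adjusted p = 0.0034), while Mcm5 differed by 1.13 ± 0.37, a call lost without acute 24 h replicate 2 or 3 or chronic 24 h replicate 2 or 4. Ccnb2 was at 1.42, 0.781 and 0.527 CPM in acute and 0 counts in chronic libraries, at least 2.67-fold lower, a call lost without acute 24 h replicate 1. The number of lower genes was 2 without acute 24 h replicate 3 and 3 without chronic 24 h replicate 1.

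Further genes of replication and mitosis were counted in 2 lists, whose shares of calls stand here beside those of all genes. At acute 72 h, 48 of 52 other mitosis genes (92.3%) and 15 of 29 other replication genes (51.7%) were higher than in health, against 8.23%, and 1 was lower, Cit (-1.10), a kinase of cytokinesis. Dlgap5, a spindle protein, was at 0, 0.293, 0.169 and 0 CPM in health and 4.87, 3.81, 11.9 and 16.9 CPM at acute 72 h, Cenph, of the inner kinetochore, had 0 counts in health and was at least 15.4-fold higher, and Orc1, of the origin recognition complex, was at 3.63, 2.16, 1.38 and 1.78 CPM. Dscc1, of a clamp loader, had 0 counts in health and was at least 4.41-fold higher. At chronic 24 h, 13 of the 52 other mitosis genes (25%, against 8.11%) were lower and 2 (3.85%, against 11.2%) higher than in health, the latter being Cenph and Cks1b (1.88), a subunit of cyclin-dependent kinases. Kif18b, a spindle motor, was at 0 counts there, at least 4.97-fold lower. Of the 29 replication genes, Chaf1a, Chaf1b and Hells were higher (1.70, 1.80 and 1.80) and Gins3, Esco2 and Rfc4 lower (-1.07 and -2.26, with Rfc4, of the clamp loader, at 0 counts and at least 3.07-fold lower). These 3 and 3 genes are 10.3% each, near the shares of all genes. At acute 24 h the counts were 7 lower and 1 higher (Cks1b, 2.24) for mitosis, where 13.5% lower was near the 12.5% of all genes, with Kif18b (-3.43) and Cit (-3.29) lowest, and 1 lower for replication, Esco2 (-1.68). At acute 7 d they were 19 higher and 1 lower (Cit, -1.998) for mitosis (36.5% higher) and 6 higher for replication (20.7%), against 9.23%, with Chaf1b (2.29) and Chaf1a (2.01), which load histones on new DNA, the highest. At chronic 72 h and 14 d, 3 and 0 other mitosis genes were higher, 5.77% and 0% against 7.88% and 4.55% of all genes. The 3 were Spc24 (1.85), Cenph and Cks1b (1.02), and Cit was lower at both times (-2.04 and -1.72). Of the 29 replication genes edgeR called 0 at either time, with 9 and 1 at an unadjusted p below 0.05, and no other tool was run on these lists. Genes named here beyond the largest changes were picked after their values were seen.

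Of the genes that govern entry into the cycle, acute 72 h libraries were higher in 5 of 12 pocket protein, E2F and MuvB genes (41.7%), in 1 of 6 inhibitors of cyclin-dependent kinases and in 0 of 7 G1 cyclins and kinases, and lower in 0, 1 and 1. Of all genes tested, 8.23% were called higher and 4.33% lower. Counts of 0 or 1 in such short lists are not read as a result about the lists. Cdkn1a, the p21 inhibitor of cyclin-dependent kinases, was at 8.97, 4.29, 20.6 and 7.02 CPM in health and 41.1, 346 and 33.9 CPM at acute 24 h (log2 fold change 3.78 ± 0.78, adjusted p = 0.00065), with replicate 2 far above the other two. Without that library the change was 1.87 ± 0.66 (adjusted p = 0.04). It was at 35.7, 43.7, 2.76 and 23.7 CPM at acute 72 h and at 7.49, 7.28, 3.24 and 4.16 CPM at chronic 24 h, where it was lower than at acute 24 h (log2 fold change -4.68 ± 0.82, adjusted p = 0.00025, and -2.77 ± 0.67 without acute 24 h replicate 2). Cdkn1c, the p57 inhibitor, was at 33.9, 46.2, 47.3 and 25.6 CPM in health, 13.4, 15.7, 17.8 and 21.3 CPM at acute 72 h (log2 fold change -1.17 ± 0.31, adjusted p = 0.0096) and 95.99, 95.9, 84.9 and 107 CPM at chronic 72 h (log2 fold change 1.33 ± 0.31, adjusted p = 0.004). Neither group overlapped health in Cdkn1c, which was called in no other comparison with health. At chronic 72 h the G2/M genes summed to 154.1 to 225 CPM, against 143.1 to 220 CPM in health, which overlapped. A link between Cdkn1c and the levels of the cycle genes was not tested. Cdkn2c, the p18 inhibitor, rose with the cycle genes at acute 72 h (log2 fold change 1.67 ± 0.25, adjusted p = 3.9e-05), whereas Cdkn1b (-0.53 ± 0.32) and Cdkn2b (0.02 ± 0.27) were not called.

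Of the D-type cyclins, which carry growth signals into the cycle, Ccnd1 was at 25.02, 28.6, 33.4 and 18.5 CPM in health, 46.2, 36.3, 34.95 and 24.6 CPM at acute 72 h (log2 fold change 0.43 ± 0.26, adjusted p = 0.26) and 7.68, 5.33, 9.42 and 15.9 CPM at acute 7 d (log2 fold change -1.46 ± 0.27, adjusted p = 0.00036). Ccnd2 was at 704, 839, 729 and 649 CPM in health and 383, 459.9, 255 and 216 CPM at acute 72 h (log2 fold change -1.15 ± 0.28, adjusted p = 0.0042, a call lost without acute 72 h replicate 4), and it was also lower at acute 7 d (-2.09 ± 0.29), chronic 72 h (-1.96 ± 0.28) and chronic 14 d (-1.33 ± 0.28). Ccnd2 was lower in the group in which 54 of the 57 cycle genes were higher. Myc, a growth-promoting factor, was called higher at acute 24 h (1.19 ± 0.44) and chronic 24 h (1.14 ± 0.42), calls lost without any of 5 of the 7 and 5 of the 8 libraries. E2f3, an activator E2F, was at 2.901, 3.32, 3.71 and 1.21 CPM in health and was higher at acute 24 h, 72 h and 7 d (1.35 ± 0.31, 2.15 ± 0.30 and 1.31 ± 0.29) and at chronic 24 h and 72 h (2.07 ± 0.30 and 1.34 ± 0.29). E2f7, a repressor E2F, rose at acute 72 h (2.64 ± 0.46) and was lower than in health at chronic 72 h (-1.49 ± 0.48), a call lost without any of 5 of the 8 libraries. Of the pocket proteins, Rbl1 (p107) fell by 1.26 at acute 24 h and rose by 1.33 ± 0.29 at acute 72 h, and Rb1 was called in none of the 6 comparisons with health in edgeR, with -0.18 ± 0.23 at acute 72 h.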

How the data were processed

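The authors sequenced single-end reads from sorted HSCs and deposited 1 table of raw counts per Ensembl gene, with 27 libraries and 53379 genes. The submitters' processing notes name STAR, StringTie and GRCm38, and the counting step, its annotation release and its strand setting are not given in the sources used here. The methods describe biological repeats that are individual experiments and do not give the animals per library, so p-values measure the spread between these libraries. The 0 unmatched columns left nothing out.

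Gene symbols were matched through GENCODE M21, which held 53274 of the gene IDs. Genes with low counts were removed by edgeR's filterByExpr on the 7 groups, TMM factors normalised the library sizes, and all 27 libraries entered a single quasi-likelihood fit with robust dispersions in which each group had its own mean (edgeR 4.0.16, R 4.3.3). Calls needed a Benjamini-Hochberg adjusted p below 0.05 over 18758 genes and a change above 2-fold. CPM values divide each count by the scaled library size. Totals of 6.31 to 13.1 M (mega) counts limit the precision of low genes, and a floor of 3 counts per library was used where a group was at 0. Sums over the genes and their ratios were described without a test. Alternatives were DESeq2 1.42.0, other normalisations, filters and thresholds, a replicate block, the deeper libraries and leaving out each library.

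The members, lists and tests were chosen with earlier results of these data known. Genes given in full were 21 fixed members and, in each comparison, the called members with the 3 highest and 3 lowest changes. For the other pathway genes they were 9 fixed genes and the 2 called genes furthest from 0 in each list. The model was tested on simulated data for acute 72 h against healthy with 18758 genes, where it called 76 of 100 genes changed by 2 on the log2 scale, 76 of 100 changed by 3, and 2 unchanged genes. Counts of libraries within a group differed by more than sampling noise in all 39 pairs, with a chi-square of 17 to 90.2 per degree of freedom. Promoter sequences were RefSeq windows of GRCm38.p6, matched by symbol.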

Additional observations from a re-analysis of the deposited data

Results flagged for a closer look

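For 40 of the 57 genes the change from 24 h to 72 h was lower in chronic than in acute injury by edgeR's interaction term. Among the genes given in full, the difference on the log2 scale was -5.30 in E2f1, -5.18 in Top2a, -4.56 in Mki67, -4.39 in Kif11, -4.12 in Mcm5, -4.00 in Uhrf1 and -3.69 in Stmn1. It was -3.24 in Rrm2, -3.22 in Cenpa, -2.80 in Mybl2, -2.79 in Tyms, -2.65 in Mcm2, -2.42 in Cdk1, -1.98 in Foxm1 and -1.83 in Ccne1. The difference rests on the 15 libraries of the 4 groups.

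In 14 of 150 groups of 4 libraries, 1 library stood apart from the other 3 by more than Dixon's critical value, and over all members this held for 27 of 339 groups (7.965%), where chance passes about 5% of groups. Birc5 did so in 4 groups, at 2.95 CPM in healthy replicate 3, 63.4 CPM in acute 72 h replicate 4, 3.00 CPM in chronic 24 h replicate 1 and 1.03 CPM in chronic 14 d replicate 4. E2f1 stood apart at 2.19 CPM in healthy replicate 3 and 6.67 CPM in acute 7 d replicate 4. Ccne1 did at 6.42 CPM in chronic 72 h replicate 4 and 1.91 CPM in chronic 14 d replicate 4. Mcm5 did at 8.53 CPM in acute 7 d replicate 2 and 6.35 CPM in chronic 14 d replicate 1. The others were Pcna at 28.7 CPM in acute 7 d replicate 4, Rrm2 at 3.19 CPM in chronic 72 h replicate 3, Tyms at 2.86 CPM in chronic 72 h replicate 2 and Kif4 at 0.549 CPM in chronic 24 h replicate 2.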

How the results depend on the processing

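Calls are counts of the 57 genes, with the reported count first. With no filter on low counts the lower genes at acute 24 h went from 15 to 8, the falling genes from acute 72 h to 7 d from 40 to 25 and the higher genes at chronic 14 d from 1 to 0. With DESeq2, chronic 72 h had 4 higher genes for 2, chronic 14 d 2 lower for 1, and chronic against acute 24 h 2 lower for 1. At an adjusted p below 0.1 these were 4, 3 and 3. With no fold minimum, acute 7 d had 1 lower gene for 0, chronic 72 h 2 lower for 1, chronic 14 d 2 lower for 1, and chronic against acute 24 h 8 higher for 4. With only the groups compared, chronic 14 d had 0 higher for 1, chronic 72 h against 24 h 3 lower for 6, and chronic against acute 24 h 0 lower for 1. A filter at a mean of 1 CPM gave 2 lower for 1 in the last. Library size alone gave 0 lower for 1 at chronic 72 h. With libraries of over 9 M counts the difference of changes was called in 25 genes for 40, and chronic 14 d could not be fitted. The cause was not tested. Library size alone moved the median of all genes to 0.1039 at acute 72 h and 0.1455 at chronic 14 d, and raised the share of calls that were higher from 79.6% to 91.2% at chronic 14 d and from 56.4% to 67.1% for chronic 72 h against 24 h. Of 2806 alternative values for 150 called gene results, 233 lost the call and 0 changed direction. These values include the looser thresholds (adjusted p below 0.1, no fold minimum), under which a called gene cannot lose its call or change direction. A gene that a filter removed in an alternative is not among them, so the share of calls kept is overstated.

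Leaving out single libraries gave 1 to 3 higher and 5 to 18 lower genes at acute 24 h, 53 to 55 and 0 at acute 72 h, 22 to 37 and 0 at acute 7 d, 5 to 6 and 10 to 16 at chronic 24 h, 1 to 4 and 0 to 1 at chronic 72 h, and 0 to 1 and 1 to 3 at chronic 14 d. From 24 h to 72 h it gave 55 higher and 0 lower genes in acute and 6 to 14 and 3 to 7 in chronic injury. It gave 0 higher and 25 to 37 lower from acute 72 h to 7 d, 0 and 0 to 1 from chronic 72 h to 14 d, 3 to 6 and 0 to 3 for chronic against acute 24 h, and 0 and 33 to 42 for the difference of changes. At chronic 72 h the higher genes were 4 without healthy replicate 4, and the lower genes at chronic 14 d were 3 without that library.

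Same-numbered libraries of different groups correlated between -0.21 and 0.234 in their deviations, over 0.1 in 14 of 78 pairs, and 11 of 27 libraries correlated best with their own number, so the numbers were not taken to pair the libraries. For chronic 72 h against 24 h all 4 correlations were positive, at 0.0453 to 0.185, with a mean of 0.136 against -0.0453 for other numbers. In both of these groups replicates 1 and 2 had 6.52 to 7.58 M counts and replicates 3 and 4 had 12.2 to 13 M. The block left 12 higher and 6 lower genes there, as reported. With a replicate block, 54 genes were higher at acute 72 h, 29 at acute 7 d, 5 higher and 14 lower at chronic 24 h, and 40 in the difference of changes, and no count moved by over 1.5 times.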

Other observations

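Mcm10 had its highest levels outside acute 72 h. It was at 2.18, 1.46, 0.927 and 15.7 CPM in healthy and 6.62, 40.5, 3.37 and 5.14 CPM in chronic 14 d libraries, so that 1 library of each group stood above the acute 72 h range of 7.62 to 12.8 CPM.

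The change of Cdkn1a from 24 h to 72 h was -2.41 ± 0.74 on the log2 scale in acute and 1.26 ± 0.72 in chronic injury, a difference of 3.67 ± 1.04 (adjusted p = 0.024, edgeR). Without acute 24 h replicate 2, which held 346 CPM, the acute change was -0.50 ± 0.67 and the difference 1.76 ± 0.88 (adjusted p = 0.27), and the call was lost without chronic 72 h replicate 1 as well. That of Cdkn1c differed by 2.69 ± 0.46 (adjusted p = 0.0005), a call kept without each of the 15 libraries.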
